A study of Homo sapiens with 9 samples.

Results

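The comparison headed A100 in the authors' deposited table covers all 13410 of the 13410 genes of that table, each taken once by its Ensembl gene identifier. Its treated libraries are not among the labelled samples. By its header it is likely the lower dose of alisertib, set beside the column headed A1000, but no label or header says so. The cells were MV4-11, a line from an acute leukaemia of monocytic type that carries a rearranged MLL gene and a duplication in FLT3. As the labels give them, 3 libraries came from cells in JB170 at 100 nM, 3 from cells in alisertib at 1000 nM and 3 from cells in the vehicle DMSO, 9 in all, each after 18 h. For A100, as for the column headed MK, the sources used here give neither dose and time nor the number of libraries. For each column the table holds the log2 fold change against DMSO with its raw and adjusted p-values, so no value per library and no depth can be shown. Each p-value reflects only the variation among libraries, which may be technical, since nothing says that replicates came from separate cultures.

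Every change is written as treated minus DMSO. That direction was inferred from the values, as no header states it, and the columns A100, A1000 and MK were turned while JB170 was not. Were A100 to run the other way, every "higher" and "lower" said of it would change places.

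Alisertib blocks the catalytic activity of Aurora A, the mitotic kinase that drives centrosome maturation and spindle assembly and that activates PLK1 at the entry into mitosis. JB170 brings about the degradation of Aurora A and was built from alisertib and a ligand of the ubiquitin ligase subunit cereblon. Cells whose Aurora A is inhibited are known to be delayed in mitosis with faulty spindles. ATF4, which is described here as well, is the transcription factor of the integrated stress response and drives genes of amino acid supply.

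The promoters of 5 genes that changed are shown first, because the groups described below are known through short elements in them. Genes of G2 and mitosis are known to be controlled through the CHR element, searched here as TTTGAA, together with the CCAAT box. The sequences are those of RefSeq in the build GRCh38.p14, 5′ to 3′ on the strand of the gene, from 250 bases before the annotated start to 50 after it. Capitals mark matches on either strand. HMMR, PLK1 and CKAP5 (chr5:163460382-163460681 on the plus strand, chr16:23678639-23678938 on the plus strand and chr11:46846231-46846530 on the minus strand) were called higher in A100.
HMMR: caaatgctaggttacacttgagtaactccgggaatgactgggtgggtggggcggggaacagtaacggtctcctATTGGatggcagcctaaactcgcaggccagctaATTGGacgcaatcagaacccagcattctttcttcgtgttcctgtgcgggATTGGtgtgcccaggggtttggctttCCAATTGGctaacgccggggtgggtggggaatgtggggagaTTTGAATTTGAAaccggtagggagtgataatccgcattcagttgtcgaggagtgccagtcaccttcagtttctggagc
PLK1: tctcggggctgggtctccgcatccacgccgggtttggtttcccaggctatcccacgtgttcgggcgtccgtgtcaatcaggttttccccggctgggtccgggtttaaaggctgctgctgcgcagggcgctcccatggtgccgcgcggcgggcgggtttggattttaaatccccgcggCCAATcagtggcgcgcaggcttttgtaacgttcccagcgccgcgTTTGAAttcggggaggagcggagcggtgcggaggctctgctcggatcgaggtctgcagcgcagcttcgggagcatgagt
CKAP5: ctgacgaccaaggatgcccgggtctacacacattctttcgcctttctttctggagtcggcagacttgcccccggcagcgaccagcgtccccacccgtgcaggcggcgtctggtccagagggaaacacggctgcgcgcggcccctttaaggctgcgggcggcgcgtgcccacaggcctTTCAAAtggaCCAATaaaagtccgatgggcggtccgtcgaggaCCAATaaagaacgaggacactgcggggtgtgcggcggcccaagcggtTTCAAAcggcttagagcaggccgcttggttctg
HMMR held 2 adjacent CHR matches and 5 CCAAT matches, of which 2 overlap each other. PLK1 held 1 of each. CKAP5 held 2 of each, with 1 CHR match after the start.

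ASNS and CHAC1 (chr7:97872359-97872658 on the minus strand and chr15:40953221-40953520 on the plus strand) were the genes of the ATF4 list with the smallest p-values, and both were called lower. Capitals mark the core of the ATF4 response element, searched on both strands as TGATGNAA, and CCAAT boxes.
ASNS: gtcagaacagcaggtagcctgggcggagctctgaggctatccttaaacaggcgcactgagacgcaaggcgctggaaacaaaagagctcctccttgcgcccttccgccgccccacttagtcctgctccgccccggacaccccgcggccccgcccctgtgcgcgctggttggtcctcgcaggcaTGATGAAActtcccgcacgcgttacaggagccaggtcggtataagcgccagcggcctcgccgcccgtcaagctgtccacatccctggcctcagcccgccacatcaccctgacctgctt
CHAC1: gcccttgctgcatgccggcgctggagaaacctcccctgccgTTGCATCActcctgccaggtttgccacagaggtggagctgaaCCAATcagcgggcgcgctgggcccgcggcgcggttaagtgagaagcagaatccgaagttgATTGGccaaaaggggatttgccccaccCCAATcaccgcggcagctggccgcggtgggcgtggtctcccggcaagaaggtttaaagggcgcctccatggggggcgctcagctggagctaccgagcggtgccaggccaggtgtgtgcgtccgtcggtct
ASNS held 1 element core and no CCAAT box, and CHAC1 held 1 core and 3 CCAAT boxes. The promoter of ATF4 itself held no match to either, which says only that these letters are not in that window. Over the 75 measured G2/M genes that had a promoter in the table, 52 (69.3%) held a CHR match and 58 (77.3%) a CCAAT match, against 15.2% and 34.6% of all 35116 promoters. Of 50 genes of the ATF4 list, 13 (26.0%) held the element core, against 3.62% of all promoters, and 34 (68.0%) held a CCAAT match. The 35116 promoters were not limited to measured genes and were not reduced to 1 per gene, as the lists were. A match is a description of the sequence and not a bound site.

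In A100, the authors' adjusted p was under 0.05 for 174 genes of the table (1.30%), which are the genes called here. The ratios of adjusted to raw p-values put the authors' own count at 191 over 16812 tests. Some genes that passed are therefore not in the table. Of the 174 genes, 102 (0.761%) were higher and 72 (0.537%) lower. The raw p was under 0.05 for 1561 genes (11.6%), 850 of them higher and 711 lower. The changes were mostly small. The median absolute log2 fold change of the called genes was 0.46, or 1.37-fold, and 23 of them reached 1, with 14 higher and 9 lower. Over all genes the median log2 fold change was 0.00, with quartiles of -0.15 and 0.14. By the same rule, calls were made for 794 genes (5.92%) in A1000, 63 (0.470%) in MK and 4 (0.0298%) in JB170, all against DMSO. The DMSO libraries are taken here to be the same for every column, though no label or header says so. Precision followed the level of the gene. The median standard error implied by the p-values was 0.12 for the 9321 genes with a mean log2 CPM of at least 3, and 0.60 below that level.

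**Figure D1:**
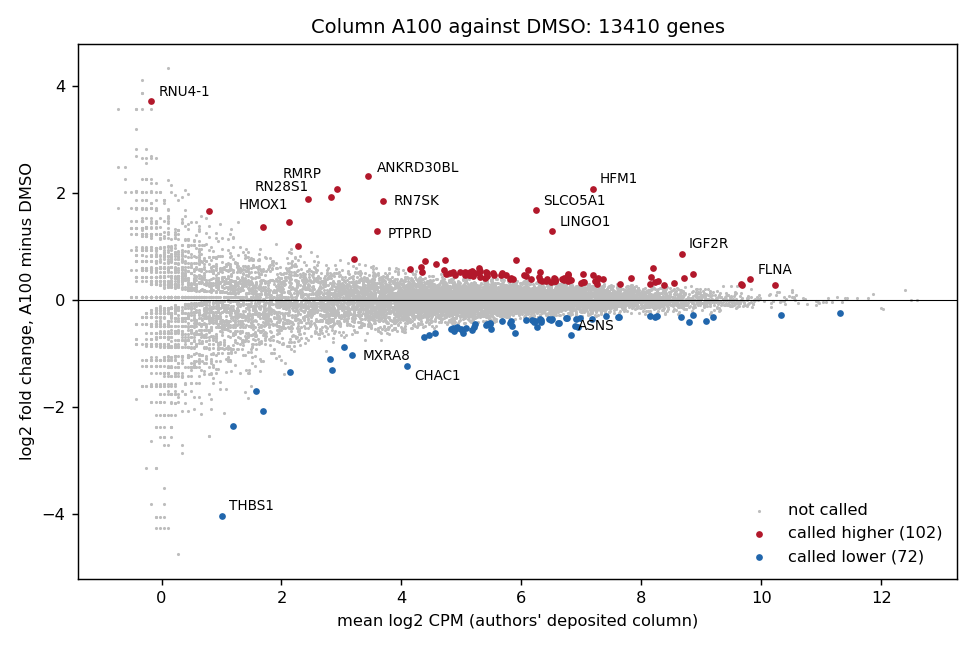
Log2 fold change of A100 minus DMSO against the authors' mean log2 CPM for each of the 13410 genes, with 102 genes called higher, 72 called lower and the others in grey. The spread of uncalled genes widens towards low mean log2 CPM, and HFM1, SLCO5A1, LINGO1 and IGF2R stand apart at high levels.

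Among called genes with a mean log2 CPM of at least 3, the 4 largest rises were those of ANKRD30BL, HFM1, RN7SK and SLCO5A1. HFM1, which encodes a helicase needed for crossing over in meiosis (ENSG00000162669, minus strand of chromosome 1, 91260766 to 91404869, in the GRCh38 annotation of GENCODE 29), was higher by 2.08 on the log2 scale, or 4.22-fold (95% interval of the log2 value 1.91 to 2.24, adjusted p = 2.93e-131, the authors' deposited table). It was the gene with the smallest p of all 13410. Intervals here and below are not the authors' own but were computed from the error implied by their p-value. SLCO5A1, which belongs to the solute carriers of organic anions, was higher by 1.68 (1.49 to 1.86, adjusted p = 5.51e-66, the authors' deposited table). ANKRD30BL had the largest rise among genes with a mean log2 CPM of at least 3, at 2.31 (1.86 to 2.76, adjusted p = 2.06e-20, the authors' deposited table). The column JB170 gave ANKRD30BL 2.17, whereas HFM1 stood at 0.75 and SLCO5A1 at 0.51 there (the authors' deposited table).

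RNAs that carry no poly(A) tail were higher beside them, although the libraries were made after poly(A) selection, per the labels' protocols. RN7SK, the 7SK RNA that holds the elongation factor P-TEFb inactive, was higher by 1.84 (adjusted p = 1.01e-25, the authors' deposited table). RMRP, the RNA of the RNase MRP complex, was higher by 2.08 (adjusted p = 3.45e-21) and the ribosomal RNA RN28S1 by 1.93 (adjusted p = 1.42e-16), both from the authors' deposited table. The list these belong to holds RNAs without a poly(A) tail and repeat-adjacent genes. Its member RNU1-1 was measured too, at 1.48 with an adjusted p of 0.819 and a mean log2 CPM of -0.33. HFM1, SLCO5A1 and ANKRD30BL were put in that list, as repeat-adjacent genes, because of earlier results of these data. The list's count and median therefore say nothing of its direction. Whether the reads assigned to HFM1, SLCO5A1 and ANKRD30BL come from their own transcripts was not tested. RN7SK stood at 1.20 in A1000, 1.14 in MK and 0.63 in JB170, the last of these not called, in the authors' deposited table. The small nuclear RNA RNU4-1 (3.71, adjusted p = 0.0145) and the snoRNA SNORD3A (1.65, adjusted p = 0.0204) were called higher too in the authors' deposited table, at mean log2 CPM of -0.17 and 0.79, and were picked with their values known. RNAs of this kind have near-identical copies in the genome, so their assignment is uncertain. How far the share of such RNA in the libraries moved with the other changes of A100 was not tested.

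LINGO1, a leucine-rich repeat membrane protein of neurons (ENSG00000169783, minus strand of chromosome 15, 77613027 to 77820900, GRCh38), was higher by 1.28 or 2.44-fold (1.11 to 1.46, adjusted p = 2.04e-43, the authors' deposited table). IGF2R, the receptor that carries mannose-6-phosphate tagged enzymes to lysosomes (ENSG00000197081, plus strand of chromosome 6, 159969099 to 160113507, GRCh38), was higher by 0.86 (0.71 to 1.01, adjusted p = 1.76e-25, the authors' deposited table). PTPRD, a receptor tyrosine phosphatase, was higher by 1.29 (adjusted p = 1.80e-11, the authors' deposited table). All 3 were called in MK as well, LINGO1 at 1.45, IGF2R at 0.74 and PTPRD at 0.77 in the authors' deposited table, while in JB170 they stood at 0.12, 0.13 and 0.13 with no call. In A1000 the authors' deposited table called IGF2R (0.36), but neither LINGO1 (0.23, adjusted p = 0.149) nor PTPRD (0.48, adjusted p = 0.141).

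CCNA1, the cyclin A of germ cells and myeloid progenitors, was higher by 0.74 (adjusted p = 1.50e-09, the authors' deposited table). BMF, a BH3-only protein that promotes apoptosis, was higher by 0.66 (adjusted p = 0.00132), and MVP, the main protein of vault particles, by 0.73 (adjusted p = 0.000364), both from the authors' deposited table. In A1000 the values of these 3 were larger, at 1.25 for CCNA1, 0.94 for BMF and 1.04 for MVP (the authors' deposited table). The test given below did not call these differences. Its errors count the shared DMSO libraries in both columns and are too large, so a missing call does not show equal rises. HMOX1, the haem oxygenase induced by oxidative stress, was higher by 1.89 (adjusted p = 4.99e-10, the authors' deposited table) at a mean log2 CPM of 2.44, and was picked with its values known. The histone gene HIST1H2AC (now H2AC6) was higher by 0.74 (adjusted p = 4.72e-05) and FAM117A by 0.76 (adjusted p = 0.0444), both from the authors' deposited table. Of 53 genes with a HIST symbol, a list made with the values known, 3 were called higher (HIST1H2AC, HIST1H2BD and HIST1H2BK) and none lower, where 0.761% of all genes were called higher.

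At a mean log2 CPM of at least 3 the largest falls were smaller than the largest rises. CHAC1, which degrades glutathione and is induced by ATF4 (ENSG00000128965, plus strand of chromosome 15, 40952962 to 40956519, GRCh38), was lower, at -1.24 on the log2 scale or 2.35-fold (-1.61 to -0.86, adjusted p = 9.00e-08, the authors' deposited table). MXRA8, a cell adhesion protein, was lower at -1.03 (adjusted p = 0.0233), and MED31, a subunit of the Mediator complex, at -0.88 (adjusted p = 0.0498) in the authors' deposited table. The remaining 9 of the 12 largest falls lay between -0.70 and -0.56. They were FAM156A, ASNS, C8orf73 (now MROH6), SPON2, SNHG12, ZNF692, LZTFL1, KCNE1L (now KCNE5) and PRR7, all called in the authors' deposited table. SPON2 is a matrix protein, SNHG12 a host gene of snoRNAs and KCNE1L a potassium channel subunit. THBS1, the matrix protein thrombospondin, had the most negative value of the called genes, -4.04 (adjusted p = 0.00137, the authors' deposited table), but at a mean log2 CPM of 1.01, where the error was 0.87. It was picked with its values known.

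**Figure D2:**
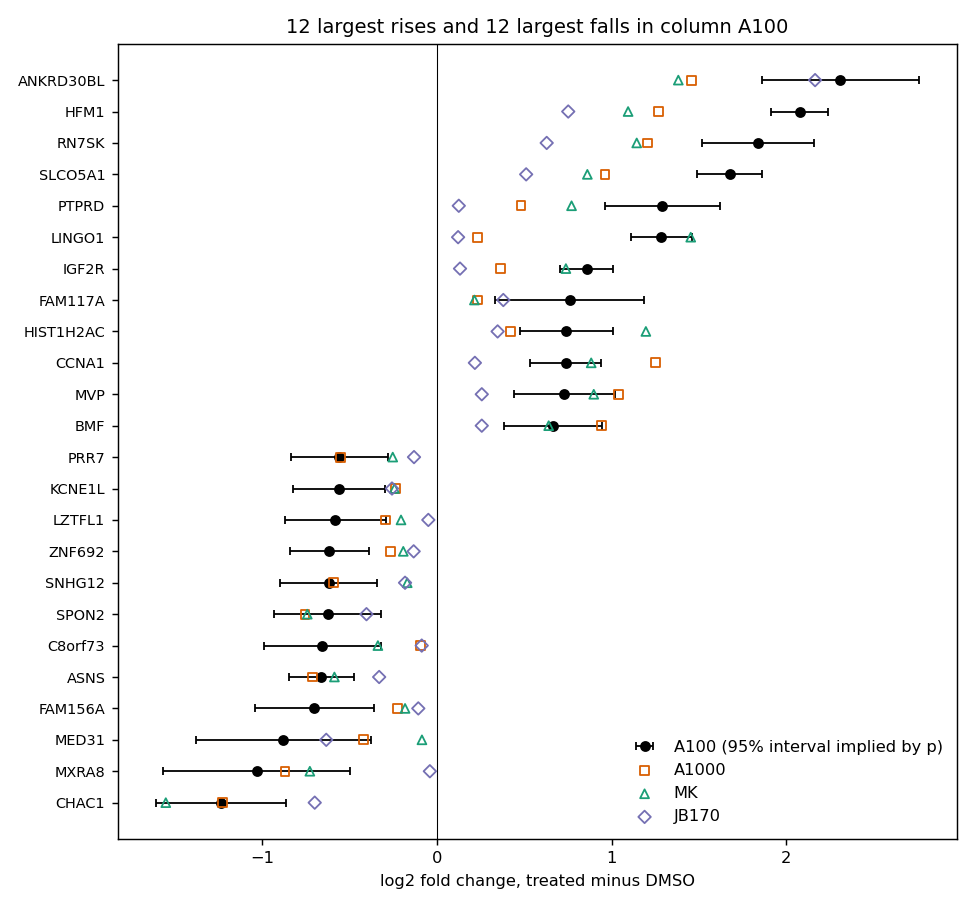
Log2 fold changes, treated minus DMSO, of the 12 largest rises and the 12 largest falls of A100 among called genes with a mean log2 CPM of at least 3. Black points are A100 with the 95% interval implied by the authors' p-value. Open symbols are A1000, MK and JB170, which are taken to share their DMSO libraries with A100. LINGO1 is near 1.28 in A100 and 1.45 in MK but at 0.23 in A1000. CHAC1 is at -0.70 or lower in all 4 columns, though it was not called in JB170.

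AURKA stood at 0.29 (0.12 to 0.47, p = 0.000807), just outside the threshold with an adjusted p of 0.0592, in the authors' deposited table. The same table gave AURKA 0.49 in A1000 (called), 0.48 in MK (not called) and 0.04 in JB170 (not called). AURKB, which encodes Aurora B of the chromosomal passenger complex, was at -0.17 (adjusted p = 0.527) and TPX2, which activates Aurora A on the spindle, at 0.12 (adjusted p = 0.649) in the authors' deposited table. Of 18 measured members of the list of Aurora A with its partners and activators, 2 were called higher and none lower, where 0.761% of all genes were called higher. They were the kinase PLK1 and the microtubule polymerase CKAP5. BORA, the cofactor through which Aurora A activates PLK1, stood at 0.27 with an adjusted p of 0.295 in the authors' deposited table. The list's median log2 fold change was 0.10.

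Of 91 measured G2/M and mitosis genes, 4 were called higher and none lower, where 0.761% of all genes were called higher. HMMR, a spindle protein that binds hyaluronan, was higher by 0.51 (0.32 to 0.71, adjusted p = 9.04e-05), and PLK1 by 0.41 (0.24 to 0.57, adjusted p = 0.000373), in the authors' deposited table. CKAP5 was higher by 0.33 (adjusted p = 0.00752) and PRR11 also by 0.33 (adjusted p = 0.0469), both from the authors' deposited table. These 4 all held both a CHR and a CCAAT match in their promoters, of which 3 are printed above. Such matches are common in the list, at 69.3% and 77.3% of its members with a promoter, and are not particular to the called genes. The list's median was 0.10, with 65 members above 0 and 26 below. At an unadjusted p under 0.05, 23 members were higher and 6 lower. The values for the mitotic cyclin CCNB1 (0.18, adjusted p = 0.345) and the proliferation marker MKI67 (0.13, adjusted p = 0.593) missed the threshold in the authors' deposited table. The G2/M median was 0.16 in A1000, 0.05 in MK and 0.03 in JB170.

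Of 78 measured genes of S phase and DNA replication, 2 were called lower and none higher, where 0.537% of all genes were called lower. GMNN, the inhibitor of replication licensing geminin, was lower at -0.44 (adjusted p = 0.00267) and CHTF18, a subunit of a clamp loader, also at -0.44 (adjusted p = 0.00341) in the authors' deposited table. The list's median was -0.04, with 27 members above 0 and 51 below. None of 26 measured p53 targets was called, where 1.30% of all genes were, and their median was 0.00. At that share a list of this size would often hold no call. BTG2, an antiproliferative gene induced by p53, stood at 0.55 (adjusted p = 0.109) and MDM2 at 0.02 (adjusted p = 1) in the authors' deposited table.

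Of the lists, the one for ATF4 and the unfolded protein response had the most members called lower. These were 8 of 59 measured members, with none higher, where 0.537% of all genes were called lower. The median was -0.10, with 12 members above 0 and 47 below. ASNS, the enzyme that makes asparagine, was lower at -0.66 (-0.85 to -0.48, adjusted p = 4.81e-09, the authors' deposited table). The transcript of ATF4 itself was lower at -0.40 (adjusted p = 0.000118) and that of DDIT4, an inhibitor of mTORC1, at -0.50 (adjusted p = 0.00292) in the authors' deposited table. PSAT1 of serine synthesis (-0.33), the amino acid transporter subunit SLC3A2 (-0.30), the pseudokinase TRIB3 (-0.37) and HERPUD1 of protein degradation at the endoplasmic reticulum (-0.40) were called lower too (the authors' deposited table). Of these 8 genes 4 held the ATF4 element core in their promoters and 4 a CCAAT match, where 26.0% and 68.0% of the list's promoters did. The list's median was -0.21 in A1000, -0.14 in MK and -0.07 in JB170. Some host genes of snoRNAs were lower as well. SNHG1 (-0.52, adjusted p = 3.42e-05) and SNHG12 (-0.62, adjusted p = 0.00350) were called lower of 10 such genes, a list made with the values known (the authors' deposited table). Over all genes 0.537% were called lower.

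**Figure D3:**
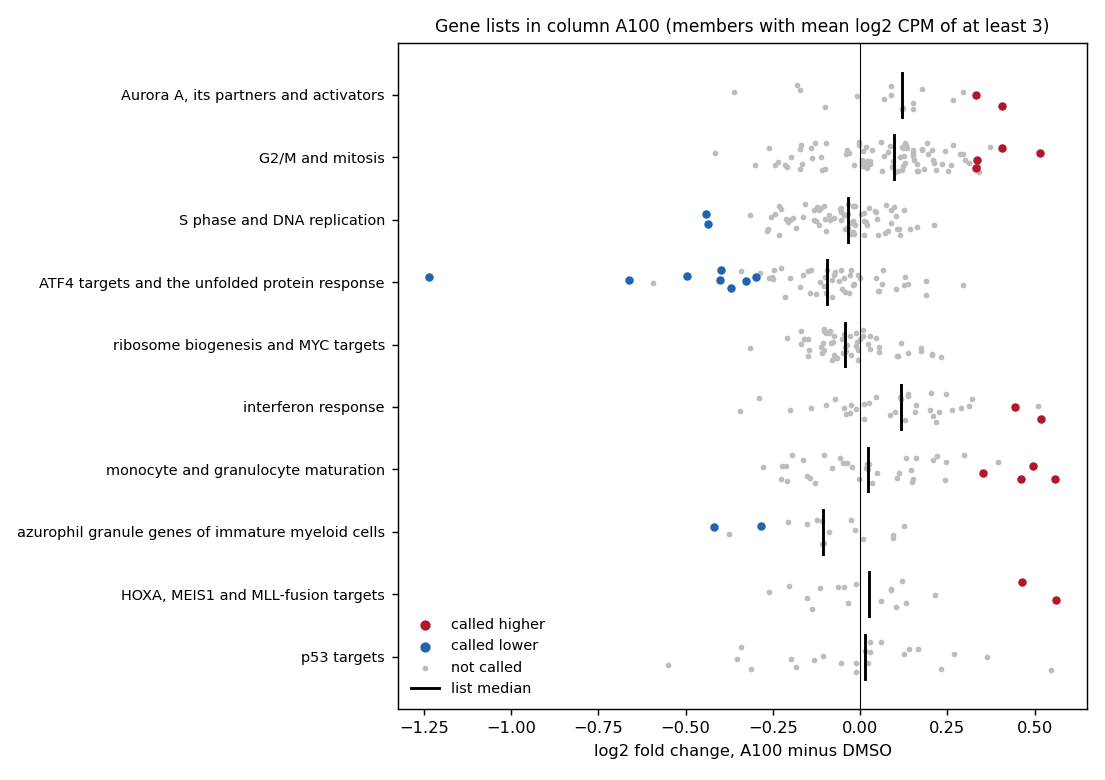
Log2 fold changes of A100 minus DMSO for the members of 10 gene lists with a mean log2 CPM of at least 3, with called members in colour and the list median as a black bar. The ATF4 list has 8 members called lower and none higher, and the G2/M list 4 called higher and none lower. None of the p53 list was called. Over all genes 0.761% were called higher and 0.537% lower.

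The label of the cells was checked against 12 markers of MV4-11 and monocytic leukaemia, of which 11 were measured. Their median mean log2 CPM was 5.97, in a column whose libraries are not named. FLT3 had a mean log2 CPM of 9.88, CD4 8.64, SPI1 8.26 and CD33 5.97, and HOXA9 was the lowest at 1.41. Of these markers 1 was called in A100, where 1.30% of all genes were called. It was CSF1R, the receptor of the macrophage growth factor, higher by 0.46 (adjusted p = 0.0121, the authors' deposited table). Other lineages were mostly at low levels. Of 6 measured lymphoid markers 4 were below a mean log2 CPM of 1 and the others were IL7R at 6.40 and NCAM1 at 6.20, while the 4 measured markers of epithelial cells and fibroblasts were all below 3. No member of these lists, nor of the 4 measured erythroid and megakaryocytic markers, was called, where 1.30% of all genes were.

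The called myeloid genes differed in direction between maturation genes and granule genes of immature cells. Of 50 measured genes of monocyte and granulocyte maturation 4 were called higher and none lower, where 0.761% of all genes were called higher. They were CSF1R, VIM (0.35, adjusted p = 0.00333), the lysosomal glycoprotein CD68 (0.49, adjusted p = 0.00552) and the aminopeptidase ANPEP, known as CD13 (0.56, adjusted p = 0.0120), in the authors' deposited table. The list's median was 0.03, with 31 members above 0. Of 16 measured azurophil granule genes, which immature myeloid cells express, 2 were called lower and none higher, where 0.537% of all genes were called lower. They were azurocidin AZU1 (-0.42, adjusted p = 6.50e-05) and proteinase 3 PRTN3 (-0.28, adjusted p = 0.0198) in the authors' deposited table. That list's median was -0.11, with 12 members below 0, against 0.00 in A1000, 0.02 in MK and -0.02 in JB170. With the trend over exon length described below taken off, the azurophil median was -0.05, with 1 member called lower, and the maturation median 0.08, with 4 called higher. In bulk RNA, fewer cells of a stage and less RNA per cell cannot be told apart.

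Of 19 measured HOXA, MEIS1 and MLL-fusion target genes 2 were called higher, where 0.761% of all genes were called higher. Both encode chromatin regulators. MLL (now KMT2A), the histone methyltransferase whose gene is rearranged in these cells, was higher by 0.56 (adjusted p = 3.26e-05) and the demethylase-like JMJD1C by 0.46 (adjusted p = 0.000232), both from the authors' deposited table. In A1000 and MK the same table gave MLL 0.16 and -0.32, neither called. MYB, a transcription factor of myeloid progenitors, stood at -0.26 with an adjusted p of 0.0553 (the authors' deposited table). The list's genes were long, with a median of 7436 exon bases, and its median log2 fold change was 0.06. With the trend over exon length described below taken off, that median was -0.02, with 2 called higher and 1, MYB, called lower. Of 50 measured interferon response genes 2 were called higher, against the same share of all genes, SAMD9 (0.44, adjusted p = 0.0280) and the DNA sensor IFI16 (0.52, adjusted p = 0.0499) in the authors' deposited table, and the median was 0.13. Of 26 measured cholesterol synthesis genes, INSIG1, which holds back sterol synthesis, was the only call, where 0.537% of all genes were called lower (-0.30, adjusted p = 0.0280, the authors' deposited table). No member was called among 57 genes of ribosome biogenesis and MYC targets, 31 of FLT3, STAT5 and ERK output or 31 of glycolysis and hypoxia. The same held for 21 of the heat shock response, 18 of NF-kB and inflammation and 11 of the SRC kinases. Over all genes 1.30% were called, so lists of this size would often hold no call. MYC stood at -0.09 and CRBN, which encodes cereblon, at -0.28 (adjusted p = 0.784 and 0.392, the authors' deposited table).

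The genes called higher in A100 were longer than those called lower. The median exon length was 7075 bases over the genes called higher and 2528 over those called lower, against 3538 over the 13197 genes that have a length in the basic set of GENCODE 29. Among the 744 genes with more than 10000 exon bases, 26 were called higher and none lower. Over all genes 0.761% were called higher and 0.537% lower. They included MACF1, which links actin to microtubules (30870 bases, 0.41), the dynein heavy chain DYNC1H1 (20003 bases, 0.49), the scaffold AHNAK (19246 bases, 0.49), the ubiquitin ligases UBR4 (19594 bases, 0.46) and HUWE1 (15037 bases, 0.40), and MLL (16628 bases, 0.56), with values from the authors' deposited table. These were picked with their values known.

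The 9222 genes with a mean log2 CPM of at least 3 and a known length were put in 10 groups by length, from a median of 1006 to a median of 10263 exon bases. In A100 the median log2 fold change was -0.06 in the shortest group and 0.09 in the longest. The longest group held 923 genes, of which 42 were called higher and none lower. The shortest 4 groups together held 21 called higher and 45 lower. Over all 10 groups, 93 of the 9222 genes were called higher and 64 lower. The other columns differed in this respect. The medians of the shortest and longest groups were -0.02 and 0.04 in A1000, -0.03 and 0.04 in JB170, and, with the opposite slope, 0.11 and -0.08 in MK. Pearson's r between log2 length and log2 fold change over these genes, which share their libraries, was 0.23 in A100, 0.11 in A1000, -0.26 in MK and 0.13 in JB170. The called genes also differed in base composition, with a median GC share of 49.5% among those higher and 56.7% among those lower, against 48.2% over all genes. With the median trend over length taken off and p-values adjusted over the 13197 genes with a length, 135 were called, 73 higher and 62 lower. The 174 rest on the authors' adjustment instead. Adjusted over the genes of the table with the trend kept, the count was 190. Of these 135, 106 were among the 174. In the longest group 19 were then called higher and 6 lower, in the ATF4 list 7 lower and in the G2/M list 5 higher. The interferon list and the Aurora A list then had 1 called higher each. HFM1, LINGO1, IGF2R, MLL, PLK1, HMMR, CHAC1, ASNS and ATF4 were still called, whereas CKAP5 (adjusted p of 0.0611), SAMD9 (0.0707), PRTN3 (0.144) and MED31 (0.0798) were not. RNA quality per library was not analysed here, and its part in the trend was not tested.

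**Figure D4:**
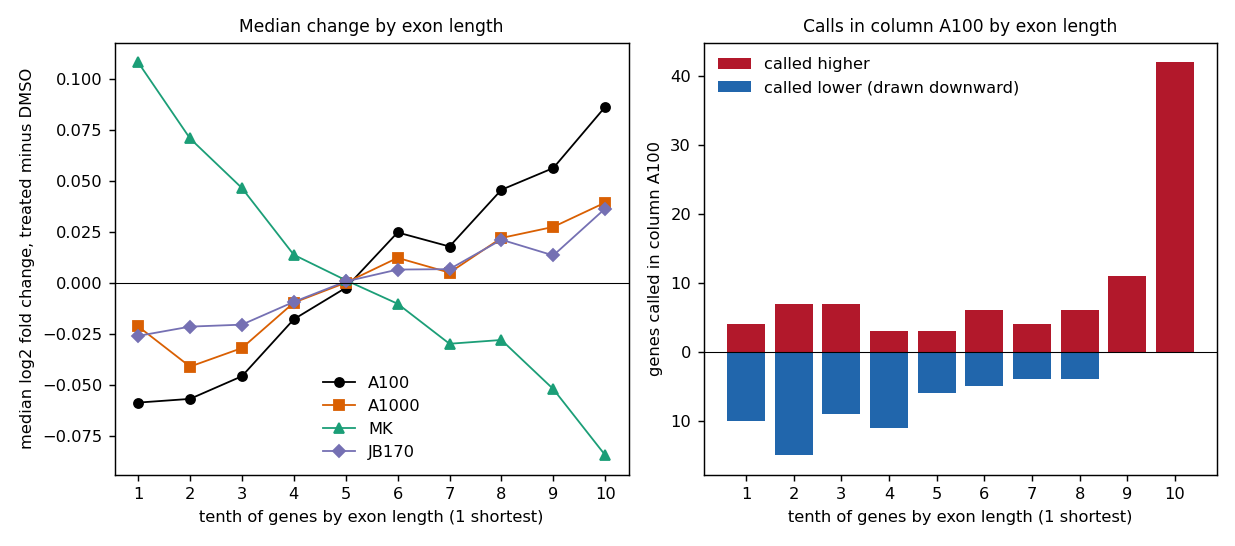
Left, median log2 fold change, treated minus DMSO, in 10 groups of genes by exon length (mean log2 CPM of at least 3) for A100, A1000, MK and JB170. Right, the number of genes called higher and lower in A100 in each group, with 42 higher and none lower in the longest. The A100 medians run from -0.06 to 0.09 and the MK medians from 0.11 to -0.08.

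Against A1000, a test of the difference of both log2 fold changes, with an error implied by the p-values, called 12 genes (0.0895%), 9 higher in A100 and 3 lower. The raw p was under 0.05 for 327. The test counts the shared DMSO libraries in both errors, which makes these too large; with those libraries taken off it called 101 genes, 70 higher and 31 lower. For 4 of the 9 the difference came from rises that were larger in A100: LINGO1 (difference 1.05, interval 0.80 to 1.31, adjusted p of 8.16e-12), HFM1 (0.81, 0.58 to 1.04, adjusted p of 3.74e-08), SLCO5A1 (0.71, adjusted p of 0.000271) and IGF2R (0.49, adjusted p of 0.00570). The other 5 were genes that were called lower in A1000 and not called in A100. FGR, a SRC family kinase of myeloid cells, stood at -0.21 in A100 and -2.41 in A1000 (the authors' deposited table; difference 2.20, adjusted p of 0.000126). MYBPH, a myosin-binding protein, stood at -0.13 in A100 and -1.25 in A1000, the fructose transporter SLC2A5 at -0.29 in A100 and -1.06 in A1000, and the secreted chitinase-like protein CHI3L1 at 0.02 in A100 and -0.69 in A1000 (the authors' deposited table). C20orf123, at a mean log2 CPM of 2.84, stood at -0.49 in A100 and -2.43 in A1000 (the authors' deposited table). The 3 genes lower in A100 than in A1000 were MEGF6 (-0.02 in A100, 0.72 in A1000), the thioredoxin inhibitor TXNIP (0.37 in A100, 0.91 in A1000) and CDK5RAP3 (-0.31 in A100, 0.23 in A1000), with adjusted p of 0.00570, 0.00570 and 0.00827 for the difference. For AURKA the difference was -0.19 and for PLK1 -0.11, both with an adjusted p of 1, which does not show that the columns act alike.

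Against JB170, the same test called 7 genes (0.0522%), all higher in A100, and the raw p was under 0.05 for 182. With the shared libraries taken off it called 18, 14 higher and 4 lower. The 7 are given here. These were HFM1 (difference 1.33, interval 1.09 to 1.56, adjusted p of 2.13e-23), SLCO5A1 (1.17, adjusted p of 2.43e-13), LINGO1 (1.16, adjusted p of 1.13e-14), IGF2R (0.72, adjusted p of 1.14e-07), PTPRD (1.17, adjusted p of 0.0184), RN7SK (1.21, adjusted p of 0.00609) and RMRP (1.37, adjusted p of 0.0477). The count rests on the direction taken for JB170, and it was 270 with that column the other way.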

How the data were processed

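RNA from MV4-11 cells was extracted with the miRNeasy kit, digested with DNase and turned into directional, poly(A)-selected libraries, per the labels' protocols. Per the submitters' processing notes, the tools included TopHat2 2.1.1, Bowtie2 2.3.2 and FastQC, and the build was hg19. How reads were counted, normalized, filtered and tested is not given in the sources used here. Per the file headers, the authors' deposited table holds log2 fold changes, p-values and adjusted p-values of DMSO against 4 treatments, and 1 column of mean log2 CPM. Each p-value is the authors' own, and each log2 value is the authors' own apart from its sign. The table's 13485 entries, 80 of them with 5 repeated identifiers, gave 13410 genes. The ratios of adjusted to raw p-values are those of a Benjamini-Hochberg adjustment over 16812 tests, so the further tests are not analysed here. With no values per library used, the depth is unknown and counting error has no interval.

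No header states a direction. The size of the implied standard error was compared between positive and negative changes of at least 1, at mean log2 CPM from 0 to 4. A group with fewer reads was taken to have the larger error, which was not tested. The comparison is a description and does not settle a sign, since the libraries behind the mean log2 CPM are not named. The log2 value of the error was larger among positive than among negative changes by 0.31 in A100, 0.40 in A1000 and 0.29 in MK, as deposited. In JB170 it was larger by 0.01. As deposited, A100 had a Pearson's r over genes of 0.53 with A1000, 0.49 with MK and -0.53 with JB170. These columns are taken to share their DMSO libraries. A100, A1000 and MK were multiplied by -1, so that their positive deposited changes are read as falls under treatment. For JB170 the error gave almost no difference, which leaves only the correlation.

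A gene was called at an authors' adjusted p under 0.05. Standard errors were taken as the absolute log2 value over its normal z, or, where z was under 1, as the median of 60 bins of mean log2 CPM. Differences between columns used these errors without taking off the shared DMSO libraries, with two-sided normal p-values adjusted over all genes. The scripts were tested on simulated data. Exon lengths and coordinates came from GENCODE 29 (GRCh38), and the length trend was the median log2 fold change over 20 bins of length. Python 3.11.15, pandas 2.3.3 and SciPy 1.17.1 were used. Named genes were 9 fixed genes and, per direction, the 12 largest changes at a mean log2 CPM of at least 3. The 5 smallest p-values per direction and up to 4 smallest p-values per list were added at any level. From each difference came up to 6 genes per direction at a mean log2 CPM of at least 3. Other genes were given to complete a list or a count, or were chosen after their values were seen. The members and the lists were chosen with earlier results of these data known. Alternatives changed the threshold, the genes adjusted over, the direction, the shared DMSO term and the length trend, the last of these chosen after seeing the data.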

Additional observations from a re-analysis of the deposited data

Results flagged for a closer look

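The column headed MK, whose libraries have no label, is outside the comparison described above, and 63 of its genes were called against DMSO by the authors' adjusted p. Of these 43 were higher and 20 lower, and the raw p was under 0.05 for 1160 genes.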

How the results depend on the processing

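The count of 174 genes called in A100 was 72 at an adjusted p under 0.01, 288 at one under 0.1, and 69 when a log2 change of 0.5 or more either way was also asked for. It was 190 when adjusted over the genes of the table, 214 over genes whose mean log2 CPM reached 3 and 174 without the repeated identifiers. With the length trend taken off and the adjustment made over genes with a length, it was 135. In the opposite direction the split was 72 higher and 102 lower. The 12 genes of A100 minus A1000 were 101 with the shared DMSO libraries taken off the error, 19 at an adjusted p under 0.1 and 14 at a mean log2 CPM of at least 3. The 7 genes of A100 minus JB170 were 18 with the shared libraries taken off and 270 with the JB170 column in the opposite direction. The cause of these moves was not tested. Of 114 named genes, MYB passed the threshold in both other adjustments that were run (adjusted p of 0.0488 over the table, 0.0337 without the length trend). Without the trend, which could be taken off for the named genes that have an exon length, 6 no longer passed: CDK5RAP3, CKAP5, MED31, PRR7, PRTN3 and SAMD9. MDM2, not called, stood at 0.02 and without the trend at -0.06.

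No paired analysis was possible because the table holds no values per library; for the same reason no library was left out. The number of libraries behind A100 is unknown. The error was largest below a mean log2 CPM of 3, where only 15 of the calls lie.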
